A study of Mus musculus with 17 samples.

Results

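The nuclear genes for subunits and assembly factors of mitochondrial respiratory complexes I, II and III were followed in skeletal stem and progenitor cells sorted from femora of female mice. Members were all probe sets whose single annotated symbol starts with Nduf or Uqcr, or is Sdha, Sdhb, Sdhc, Sdhd or Cyc1. This gave 114 of 45101 probe sets and 57 of 18193 genes with a probe set of a single symbol. Each gene was read from its probe set of highest mean signal, and all 57 passed the filter on low signals that kept 14504 genes; 55 of the members reached it on every array. Probe sets annotated with several symbols were not used.

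The 17 Affymetrix arrays came from C57BL/6 mice, and each held 1 sorted population, either skeletal stem cells (mSSC) or the bone, cartilage and stromal progenitors that descend from them (mBCSP). By the study's methods, mice were ovariectomized (OVX) or sham operated at 8 weeks of age, a pinned femoral fracture was made at 14 weeks, and fracture callus and uninjured femoral shafts were harvested on day 7 after fracture. OVX mice with a continuous-release estradiol (E2) pellet of 0.18 mg gave 2 callus arrays, OVX mice without a pellet gave 2 callus and 2 uninjured arrays, and sham mice gave 4 callus and 3 uninjured arrays. Another 2 callus arrays were titled OVX but carried a sham treatment label (conflicting-label callus), and 2 callus arrays named no surgery (unstated-surgery callus); neither pair entered a comparison of ovary state. Every group held as many mSSC as mBCSP arrays except uninjured sham bone, which held 2 mSSC arrays and 1 mBCSP array. The labels do not say that arrays of a group came from separate mice, so p-values measure only the spread between these arrays, which may be technical.

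The array titles begin with codes of 3 forms whose meaning the labels do not give. The three-letter form names treatment, injury and population (4 callus and 3 uninjured arrays), the treatment-first form names treatment and population (6 callus arrays, among them all OVX + E2 callus and all OVX callus), and the population-first form names population and injury (2 callus and 2 uninjured arrays). Fracture was therefore compared within the 2 forms that hold both states, on 6 callus and 5 uninjured arrays, with form and population as covariates. Ovary state was not in this fit. Of its uninjured arrays 2 were OVX and 3 sham, while its callus arrays were sham, conflicting-label or unstated-surgery.

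Complex I takes electrons from NADH and complex II from succinate; both pass them through ubiquinone to complex III, which reduces cytochrome c. Complex I consists of a catalytic core and many accessory subunits and is put together by dedicated assembly factors, while complex II is also an enzyme of the tricarboxylic acid (TCA) cycle. Skeletal progenitors make ATP by both glycolysis and this chain. By role the members were 6 core subunits, 28 accessory subunits and 8 assembly factors of complex I, 4 subunits of complex II, 9 of complex III, and the pair Ndufa4 and Ndufa4l2. Ndufa4 was named for complex I and is now assigned to complex IV, and Ndufa4l2 is its hypoxia-inducible paralog.

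Values are log2 signals after quantile normalization, and a member was called when its adjusted p was under 0.05 (limma, Benjamini-Hochberg over 14504 genes). The figure after ± is the standard error (SE) for a log2 fold change and the standard deviation (SD) for a mean. Between arrays, the median signal of all genes tested lay between 9.09 and 9.37. The log2 of the summed signal of 9 skeletal progenitor markers lay at 16.03 to 16.59 in callus, against 12.47 to 15.54 in uninjured bone. Signals of blood cell markers were found although the sort left out CD45+, Ter119+ and Tie2+ cells. The summed macrophage signal lay at 12.91 to 15.54 in callus, against 15.86 to 16.05 in uninjured bone, the summed neutrophil signal at 15.02 to 17.35, against 17.30 to 17.94, and the summed erythroid signal at 11.24 to 16, against 9.81 to 15.99. In sorted pools, fewer cells of a type and less RNA per cell cannot be told apart.

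The members as a set lay lower on three-letter arrays than on arrays of the other title forms. The median log2 signal of the 57 members was 11.25 to 11.78 on the 7 three-letter arrays, 11.81 to 12.14 on the 6 treatment-first arrays and 11.83 to 12.33 on the 4 population-first arrays. Three-letter arrays thus lay below all others, the nearest values being 11.78 and 11.81, while the other forms overlapped. Within the three-letter form, the median was 11.62 to 11.78 in callus, against 11.25 to 11.55 in uninjured bone. Within the population-first form it was 11.87 and 12.33 in callus, against 11.83 and 12.03 in uninjured bone, and these overlapped. The Spearman correlation of the members' signals between arrays had a median of 0.952 within a form and 0.918 between forms, over 57 genes that share an array.

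**Figure D1:**
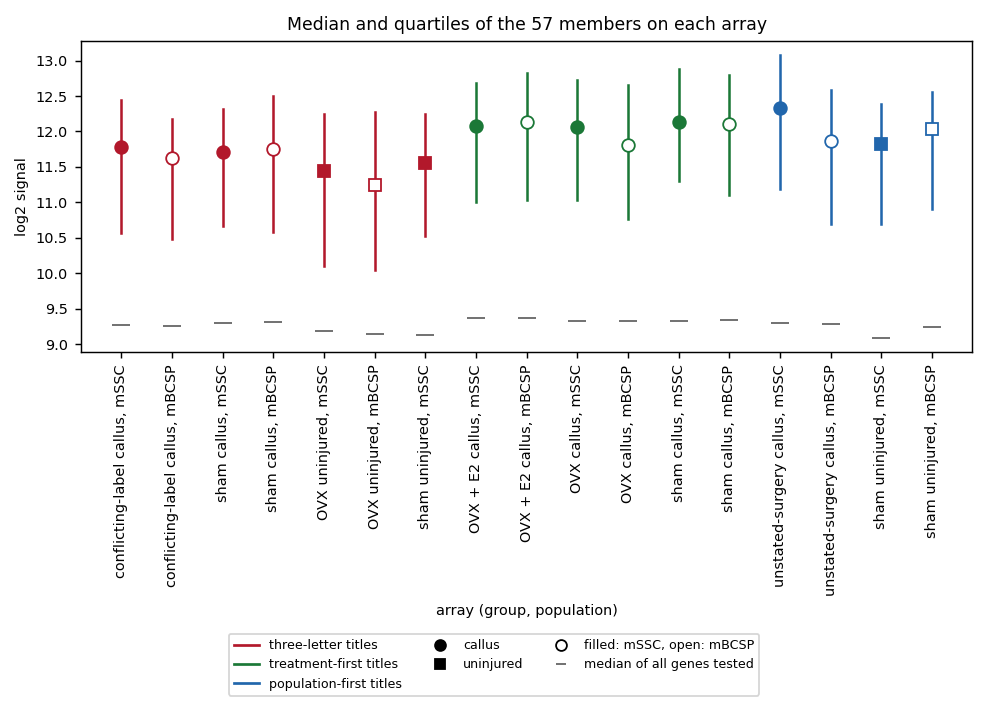
Median (symbol) and quartiles (line) of the log2 signals of the 57 members on each of 17 arrays, coloured by title form, with circles for callus, squares for uninjured bone, filled symbols for mSSC and open symbols for mBCSP; grey dashes are the median of all genes tested. The three-letter arrays reach at most 11.78, while treatment-first and population-first arrays start at 11.81.

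Single members differed in how far they varied. The widest range over the 17 arrays was that of Ndufb4, an accessory subunit, at 5.95 to 9.56, the lower end being the floor set for low signals, which no other member reached. Ndufa4l2 ranged over 8.87 to 12.23, the assembly factor Ndufaf2 over 7.67 to 10.93, the iron-sulfur core subunit Ndufs8 over 9.68 to 12.32, and the assembly factor Ndufaf5 over 8.31 to 10.81. The highest values of Ndufb4, Ndufaf2 and Ndufaf5 all came from the mSSC array of unstated-surgery callus, where Ndufb4 had 9.56, against 6.24 on the mBCSP array of the same pair. The narrowest ranges were those of Uqcrc2, a core protein of complex III (13.07 to 13.60), Sdha, the flavoprotein of complex II (11.71 to 12.40), and Ndufv2, an iron-sulfur core subunit of complex I (12.55 to 13.28).

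**Figure D2:**
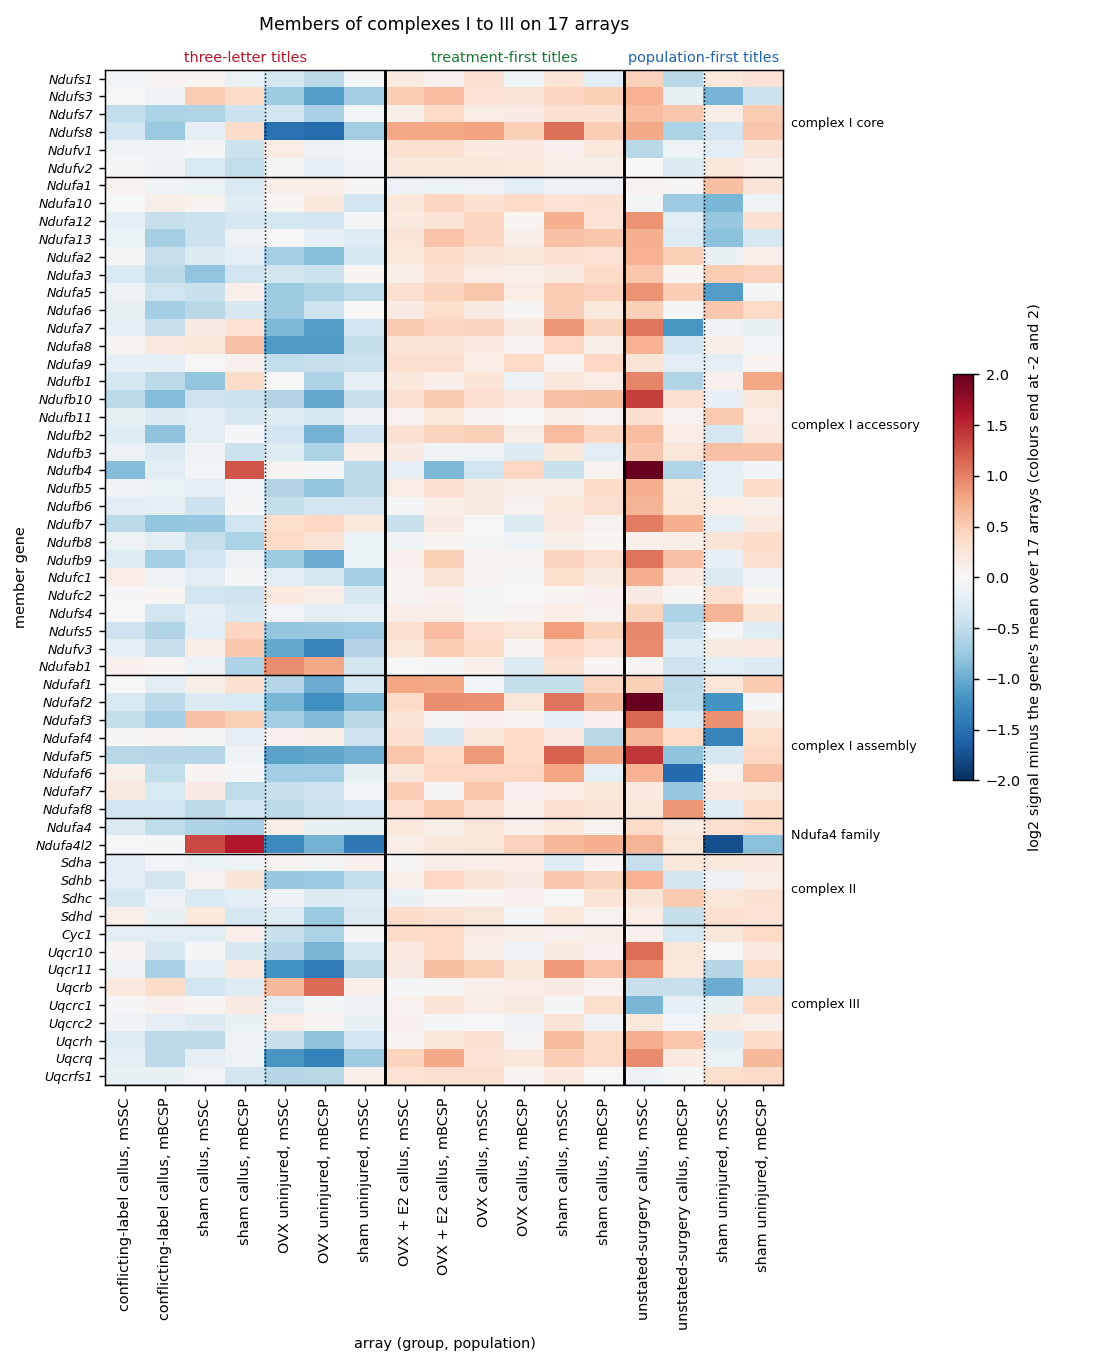
Log2 signal of each member (rows, by role) on each array (columns, by title form, with callus left of uninjured bone and mSSC left of mBCSP), minus the gene's mean over 17 arrays; red is above and blue below that mean, and colours end at -2 and 2. Ndufa4l2 is blue on all 5 uninjured arrays, where its signals reach at most 9.80, and most other rows are paler or bluer on three-letter arrays than on treatment-first arrays.

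Fracture was compared first, since the study asked how these cells respond to injury. In callus 8 of 57 members (14%) were called higher than in uninjured bone and 0 were called lower. At an unadjusted p under 0.05, 12 were higher and 1, Ndufb8, was lower (-0.40 ± 0.17, named after its value was seen). The dimmer Ndufb8 probe set was not lower, with 7.54 to 9.53 in callus, against 7.48 to 8.38 in uninjured bone. The members called were Ndufa4l2, the core subunit Ndufs3, the accessory subunits Ndufa2, Ndufa5 and Ndufa8, and the small complex III subunits Uqcr10, Uqcr11 and Uqcrq. Over all genes tested 17.5% were called higher and 14.8% lower, so the members' share of higher calls was close to the background while no lower call was made. The median log2 fold change was 0.17 over the members, with 35 of 57 above 0, and 0.02 over all genes. The members' median was 0.06 without the unstated-surgery mSSC callus array, 0.07 without the population-first sham mSSC uninjured array, and 0.26 and 0.28 without the mBCSP arrays of these same 2 pairs. With the pairs of mSSC and mBCSP arrays as a random block, 2 of the 8 were called (Ndufa4l2 and Ndufs3), beside 15.2% of all genes called higher and 12.3% lower, and the other 6 had adjusted p-values of 0.0542 to 0.0833.

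Ndufa4l2 (chr10:127509274-127517154 in GRCm38.p6) had the largest change among the members. Its log2 signals were 10.60, 11.10 and 12.23 (lowest, median and highest) in callus, against 9.69 and 9.36 in uninjured OVX cells and 9.80, 9.20 and 8.87 in uninjured sham cells. Every callus array lay above every uninjured array. The log2 fold change was 1.85 ± 0.34 (SE, 3.61-fold, adjusted p = 0.00237), with means of 11.27 ± 0.69 in callus and 9.38 ± 0.38 in uninjured bone (SD, n = 6 and 5). It was 1.90 ± 0.46 within the three-letter form (adjusted p = 0.0174) and 1.77 ± 0.62 within the population-first form (adjusted p = 0.12). On the 6 treatment-first callus arrays, which were not in this fit, Ndufa4l2 lay at 10.77 to 11.35, also above every uninjured array.

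Ndufs3 (chr2:90894627-90904721), a core subunit of the module that reduces ubiquinone, was the only other member without overlap. Its signals were 11.97, 12.31 and 12.81 (lowest, median and highest) in callus, against 11.01 and 11.40 in uninjured OVX cells and 11.68, 11.42 and 11.19 in uninjured sham cells. The log2 fold change was 1.03 ± 0.21 (SE, 2.04-fold, adjusted p = 0.00394), and it was 1.07 ± 0.21 within the three-letter form (adjusted p = 0.00952) and 0.96 ± 0.54 within the population-first form (adjusted p = 0.377). Treatment-first callus arrays lay at 12.37 to 12.73. Over all genes tested, 9.23% had every callus array above every uninjured array and 7.96% every callus array below, against 2 and 0 of the 57 members.

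The other 6 called members had smaller changes, and their callus and uninjured arrays overlapped. Ndufa8, an accessory subunit facing the intermembrane space, averaged 12.83 ± 0.39 in callus and 12.06 ± 0.59 in uninjured bone (SD, n = 6 and 5), a log2 fold change of 0.81 ± 0.27, adjusted p = 0.0398. It was 1.18 ± 0.24 within the three-letter form (adjusted p = 0.00956) and 0.12 ± 0.49 within the population-first form (adjusted p = 0.953). The difference between forms was not tested. Ndufa8 had 11.46 and 11.47 in uninjured OVX cells, all three-letter, against 12.55, 12.12 and 12.72 in uninjured sham cells. Uninjured arrays of the population-first form were all sham, and the three-letter form held 1 uninjured sham array, at 12.12. Form and ovary state can thus be told apart here only through that array. Ndufa5, an accessory subunit of the ubiquinone-reducing module, averaged 13.24 ± 0.52 in callus and 12.56 ± 0.39 in uninjured bone, a log2 fold change of 0.70 ± 0.24, adjusted p = 0.0468. It was 0.38 ± 0.19 within the three-letter form (adjusted p = 0.154) and 1.26 ± 0.51 within the population-first form (adjusted p = 0.183). The small complex III subunits Uqcr11 and Uqcrq had log2 fold changes of 0.80 ± 0.27 (adjusted p = 0.0453) and 0.65 ± 0.23 (adjusted p = 0.0492). Uqcr10 had 0.54 ± 0.18 (adjusted p = 0.0373). At these probe sets of Uqcr11, Uqcrq and Uqcr10, both uninjured OVX arrays lay below every uninjured sham array. Ndufa2, an accessory subunit of the NADH-oxidizing module, had 0.48 ± 0.15, adjusted p = 0.029, with signals of 13.03, 13.38 and 14.18 (lowest, median and highest) in callus, against 12.64 and 12.81 in uninjured OVX cells and 13.59, 13.14 and 13.34 in uninjured sham cells.

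**Figure D3:**
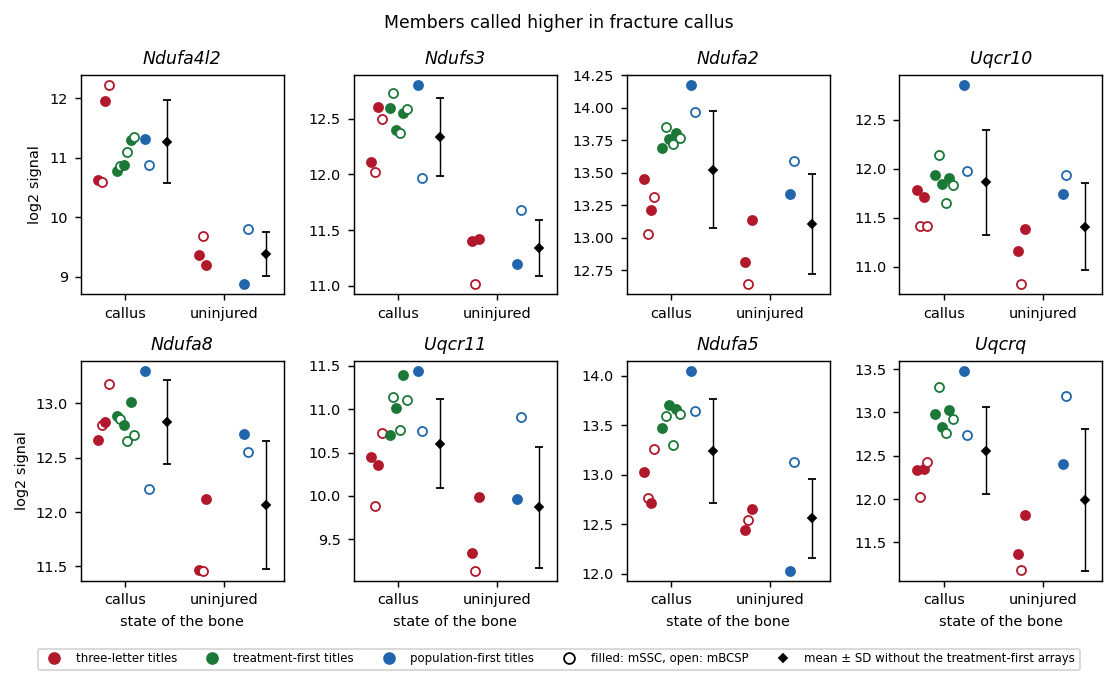
Log2 signal of the 8 members called higher in callus, with callus left of uninjured bone and 1 point per array (colours are title forms, filled points mSSC, open points mBCSP); diamonds with bars are mean ± SD without the treatment-first arrays, over 6 callus and 5 uninjured arrays. Ndufa4l2 and Ndufs3 are the 2 members whose callus arrays all lie above the uninjured arrays.

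Promoter sequences are given for 4 called members, those of largest change with an entry in the RefSeq promoter table used here (GRCm38.p6), because these genes were called in the same direction. Ndufa4l2, Ndufa2 and Uqcrq are named only. Each sequence runs from 150 bases before to 30 bases after the transcription start, 5′ to 3′, and for Ndufa5 the outermost of 2 listed starts was taken. Capitals mark matches, on either strand, to motifs of factors known to act on nuclear genes of the respiratory chain: GCGCATGC for NRF1, CCGGAAG for the ETS family, AAGGTCA for the ERR receptors and GATGGCGG for YY1. The NRF1 letters can match both strands at overlapping positions.
Ndufs3, chr2:90904692-90904871, minus strand: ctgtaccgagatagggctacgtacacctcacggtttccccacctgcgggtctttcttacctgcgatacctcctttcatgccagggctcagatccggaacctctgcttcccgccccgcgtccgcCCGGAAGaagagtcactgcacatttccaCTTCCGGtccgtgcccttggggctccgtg
Ndufa8, chr2:36049309-36049488, minus strand: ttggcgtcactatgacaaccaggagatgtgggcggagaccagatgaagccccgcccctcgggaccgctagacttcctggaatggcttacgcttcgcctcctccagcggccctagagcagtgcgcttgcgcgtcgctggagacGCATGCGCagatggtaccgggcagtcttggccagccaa
Uqcr11, chr10:80406792-80406971, minus strand: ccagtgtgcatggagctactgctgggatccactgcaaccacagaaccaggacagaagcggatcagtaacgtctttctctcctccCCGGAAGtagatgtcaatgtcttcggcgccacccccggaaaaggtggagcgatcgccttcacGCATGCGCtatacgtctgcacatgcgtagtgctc
Ndufa5, chr6:24527661-24527840, minus strand: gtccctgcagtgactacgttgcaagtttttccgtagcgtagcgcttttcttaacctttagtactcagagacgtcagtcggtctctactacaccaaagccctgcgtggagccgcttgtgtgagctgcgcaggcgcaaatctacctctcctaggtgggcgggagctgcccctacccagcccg
Ndufs3 held an ETS match on each strand, one upstream of and one just after the start, Ndufa8 an NRF1 match directly before the start, Uqcr11 an NRF1 match across the start and an ETS match upstream, and Ndufa5 none of the 4. Over the longer window of 250 bases before to 50 bases after the start, 14.3% of the 49 promoters of 47 members held the NRF1 letters, 20.4% ETS, 8.16% ERR and 12.2% YY1. Over all 32851 promoters of that length, where no chromosome was left out, the shares were 2.71%, 8.86%, 4.72% and 1.7%. At least 1 of the 4 motifs was held by 46.9% of member promoters and by 16.6% of all promoters. Of the 5 called members searched, 3 held a match. A match describes letters only.

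By role, 1 of 6 core subunits of complex I (median log2 fold change 0.04), 3 of 28 accessory subunits (median 0.22) and 0 of 8 assembly factors (median 0.34) were called. Of the assembly factors, 7 had a value above 0, the highest being Ndufaf2 at 0.96 ± 0.40, adjusted p = 0.0907. Ndufs1 and Ndufv1, core subunits of the NADH-oxidizing module, had 0.09 ± 0.21, adjusted p = 0.785, and -0.23 ± 0.18, adjusted p = 0.373. The other 2 probe sets of Ndufv1 pointed the opposite way, at 0.70 and 0.65 (adjusted p = 0.115 and 0.099 over all probe sets). In complex II, 0 of 4 were called: Sdhb, the iron-sulfur subunit, had 0.46 ± 0.23, adjusted p = 0.147, Sdha -0.24 ± 0.16, adjusted p = 0.294, and the membrane anchors Sdhc and Sdhd 0.02 ± 0.15 and 0.11 ± 0.21. In complex III, 3 of 9 were called, all small subunits without a redox centre. Of all genes tested 17.5% were called higher, and the roles were not tested against each other. Of its redox subunits, Uqcrfs1, the Rieske protein, had -0.05 ± 0.21, adjusted p = 0.895, and the 95% interval of Cyc1, cytochrome c1, ran from -0.46 to 0.46. Ndufa4 had -0.30 ± 0.17, adjusted p = 0.212, and averaged 11.29 ± 0.43 in callus and 11.64 ± 0.25 in uninjured bone, while its paralog Ndufa4l2 was called higher.

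**Figure D4:**
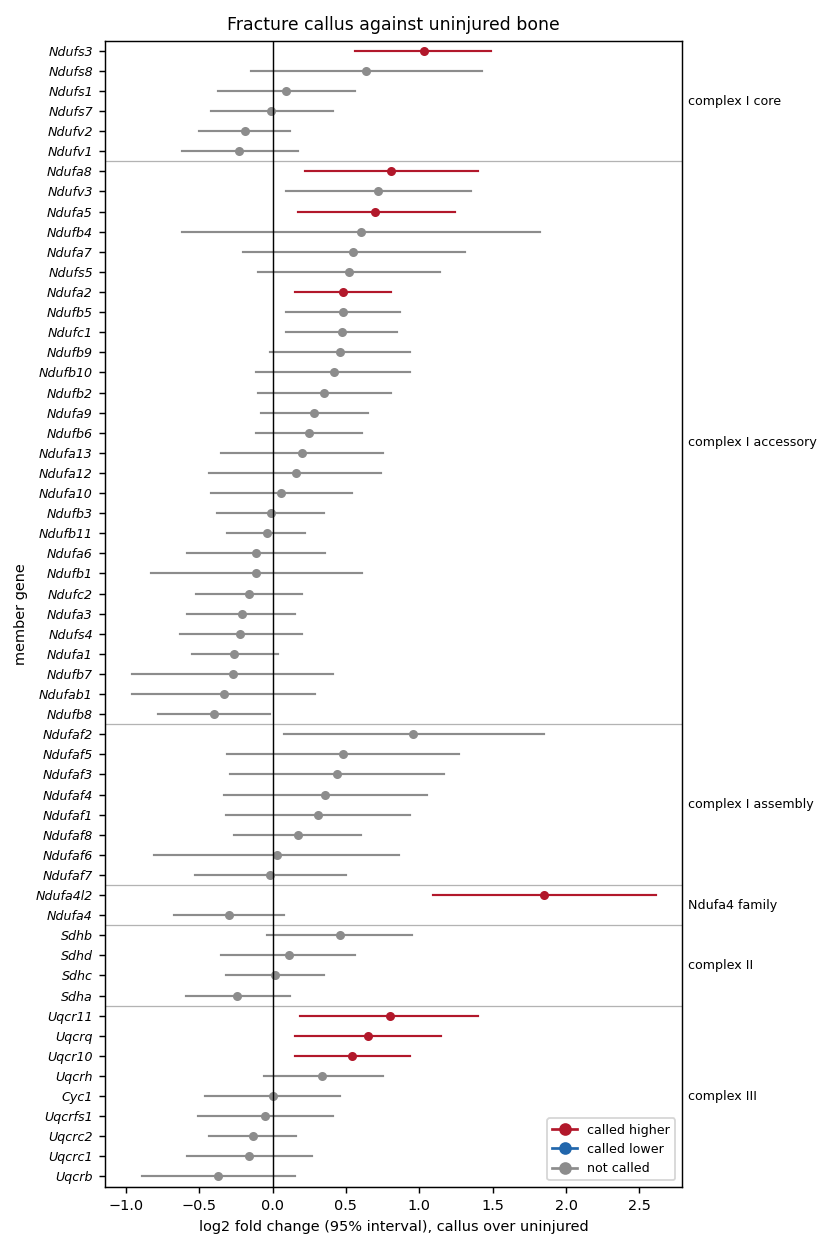
Log2 fold change of each member, callus over uninjured bone, with its 95% interval, grouped by role; red marks members called higher. The 8 called members lie between 0.48 and 1.85, and none is called lower.

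On the three-letter arrays alone, 15 members had all 4 callus arrays above all 3 uninjured arrays and 3 had them below, against 24.7% and 21.5% of all genes tested. The 3 below were Ndufa4, the accessory subunit Ndufb7 and Sdha. Ndufa4 had 11.03, 11.26, 10.89 and 10.92 in three-letter callus, against 11.39, 11.65 and 11.38 in three-letter uninjured bone. Sdha had 12.12, 11.96, 12.06 and 12.04 in three-letter callus, against 12.15, 12.22 and 12.25 in three-letter uninjured bone. The next brightest probe sets of Sdha and Ndufb7 did not lie below. That of Sdha had 11.95, 11.85, 12.13 and 12.14 in three-letter callus, against 11.36, 11.59 and 11.98 in three-letter uninjured bone. That of Ndufb7 had 10.75, 11.31, 11.60 and 11.16, against 10.76, 11.17 and 11.79. Ovary state was not balanced here, with 2 conflicting-label and 2 sham callus arrays against 2 OVX and 1 sham uninjured array. With title form in the fit, sham callus against sham uninjured bone compares 2 three-letter callus arrays with 1 three-letter uninjured array. These arrays were all in the fracture comparison above, so the sham comparison is not a separate test of it. Sham callus against sham uninjured bone, in a fit over all 17 arrays, called 14.3% of all genes higher and 10.1% lower, and 2 members higher, Ndufa4l2 (2.81 ± 0.36, adjusted p = 0.000399) and Ndufs3 (1.18 ± 0.33, adjusted p = 0.0246).

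Of the 30 members with several probe sets, 16 had probe sets on both sides of 0. For Ndufa5 the probe sets gave 0.70 and 0.47, and for Uqcr10 0.54, 1.39 and 0.65. Uqcrq had 0.65 at the probe set of highest signal and -0.17, 0.26 and 0.07 at the others. The accessory subunit Ndufa12 disagreed most, with 0.16, 0.23 and 0.18 at 3 probe sets and -1.18 at a dimmer one (adjusted p = 0.00345 over all probe sets).

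Neighbouring pathways were read from lists of the same kind. In complex IV with cytochrome c, 1 of 15 was higher, Cox4i2, the hypoxia-inducible isoform of a complex IV subunit (2.08 ± 0.31, adjusted p = 0.000702), and 1 lower, the small subunit Cox7c (-0.91 ± 0.29, adjusted p = 0.0317). In complex V, the ATP synthase, 2 of 15 were higher, Atp5g2 (0.64 ± 0.18, adjusted p = 0.0211) and Atp5g1 (0.92 ± 0.31, adjusted p = 0.0405), which encode the same ring subunit. In the TCA cycle and pyruvate dehydrogenase, 1 of 14 was lower, the citrate synthase gene Cs (-0.44 ± 0.15, adjusted p = 0.0442). Of 16 assembly factors outside the name rule, 3 were higher, Sdhaf1 and Sdhaf4 of complex II and Uqcc2 of complex III (1.09 ± 0.32, 0.78 ± 0.24 and 0.99 ± 0.30), and 1 was lower, Ttc19 of complex III (-1.34 ± 0.42, adjusted p = 0.03). Of 11 regulators of mitochondrial gene expression, 1 was higher, the coactivator Pprc1 (1.33 ± 0.35, adjusted p = 0.0144), and 2 were lower, Yy1 (-0.89 ± 0.18, adjusted p = 0.00367) and the ETS partner Gabpb1 (-0.73 ± 0.24, adjusted p = 0.0352).

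Genes of hypoxia and glycolysis had more calls than any of these lists, with 9 of 13 higher, 0 lower and a median log2 fold change of 1.13. Adm, a hypoxia-inducible peptide hormone, had 3.80 ± 0.32, adjusted p = 5.67e-05, the mitophagy receptor gene Bnip3 1.98 ± 0.27, adjusted p = 0.000454, the glucose transporter gene Slc2a1 2.02 ± 0.30, adjusted p = 7e-04, and Ldha of lactate dehydrogenase 0.88 ± 0.18, adjusted p = 0.00343. Ndufa4l2 and Cox4i2 are known from other cells as targets of the same hypoxia response.

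Markers of other cells moved in the same comparison. In callus 8 of 9 skeletal progenitor genes were called higher (median 2.25), while 5 of 10 macrophage genes (median -1.58) and 4 of 9 neutrophil genes (median -1.11) were called lower. With the mean signal of 32 blood cell genes as a covariate, a fit chosen after the data were seen, 1 member was called, beside 8.07% of all genes higher and 4.88% lower. It was Ndufa5 (1.02 ± 0.30, adjusted p = 0.0491); Ndufa4l2 had 1.46 ± 0.44 and Ndufs3 0.91 ± 0.29 (adjusted p = 0.0525 and 0.0595). Single arrays also moved the count of 8. It was 16 without the unstated-surgery mBCSP array, 5 without the conflicting-label mBCSP array, 3 without the three-letter sham mSSC callus or the population-first sham mSSC uninjured array, and 2 without any 1 of the conflicting-label mSSC, unstated-surgery mSSC, three-letter sham mBCSP callus, or either uninjured OVX array. Ndufa4l2 (1.66 to 2.02) and Ndufs3 (0.92 to 1.17) were called without each of the 11 arrays in turn.

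The populations were compared over all 17 arrays, with group and title form in the fit. No member was called between mSSC and mBCSP, 6 had an unadjusted p under 0.05, and 0% of all genes tested were called, with 1401 at an unadjusted p under 0.05. The median log2 difference was 0.09 over the members. Uqcrc1, a core protein of complex III, was lower in mSSC in 8 of 8 pairs of arrays of the same group and form (-0.29 ± 0.10, adjusted p = 0.416). Sdhd, a membrane anchor of complex II, and Ndufab1, the mitochondrial acyl carrier protein, were higher in mSSC in 8 of 8 pairs (0.30 ± 0.10, adjusted p = 0.417; 0.24 ± 0.11, adjusted p = 0.51). The other 3 were Ndufb3, Ndufs4 and Ndufaf7, with 0.26 ± 0.09, 0.28 ± 0.12 and 0.36 ± 0.15, higher in mSSC in 7, 6 and 5 of 8 pairs. At the dimmer Ndufs4 probe set of widest range the difference was -0.45. At the other Sdhd probe set the pairs split, with mSSC at 11.31 and mBCSP at 11.07 in OVX callus, but 11.06 and 11.45 in uninjured OVX bone. The next brightest Ndufab1 probe set also split, with 8.06 and 7.93 in uninjured OVX bone, but 8.51 and 8.83 in OVX + E2 callus. The share of all genes with 8 of 8 pairs in the same direction was not counted. The members' median difference was -0.01 without the unstated-surgery mSSC array. Of the endothelial markers, set as mSSC minus mBCSP, 0 of 10 were above 0 and all 10 at an unadjusted p under 0.05 (median -1.94; Pecam1 -2.44 ± 0.35, adjusted p = 0.189). Neutrophil markers had 8 of 9 above 0 and 5 at an unadjusted p under 0.05 (median 0.52), and macrophage markers 7 of 10 and 3 (median 0.20). No marker passed the adjusted test, and their part in the members' values was not tested.

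The pairs differed in direction. The median difference of mSSC from mBCSP was 0.50 in unstated-surgery callus, with 49 of 57 members higher in mSSC, and 0.16, 0.13, 0.12 and 0.08 in conflicting-label callus, uninjured OVX bone, OVX callus and treatment-first sham callus. It was -0.12 in three-letter sham callus, -0.13 in OVX + E2 callus and -0.23 in uninjured sham bone, with 22, 17 and 17 members higher in mSSC. The response to fracture was not called different between mSSC and mBCSP for any member, nor for any gene tested (0%; 286 genes at an unadjusted p under 0.05). The difference, mSSC minus mBCSP, was above 0 for 47 of 57 members (median 0.24), and its smallest unadjusted p was that of the accessory subunit Ndufa10 (0.85 ± 0.38, adjusted p = 1). The assembly factors Ndufaf6, Ndufaf2, Ndufaf4 and Ndufaf7 followed, with 1.16 ± 0.71, 1.18 ± 0.77, 0.92 ± 0.60 and 0.69 ± 0.45. Single arrays moved these values: the members' median was 0.04 without the unstated-surgery mBCSP array and 0.41 without the uninjured OVX mBCSP array. Ndufaf6 was 0.39 without the unstated-surgery mBCSP array, Ndufaf2 0.56 without the unstated-surgery mSSC array, Ndufaf4 0.30 without the population-first sham mSSC uninjured array, and Ndufaf7 0.40 without the sham mBCSP uninjured array. Endothelial markers had 0 of 10 above 0 in the same difference (median -2.17) and macrophage markers 9 of 10 (median 0.98); their part was not tested. Intervals were wide: that of Ndufa4l2 ran from -0.85 to 2.26 and that of Ndufs3 from -0.65 to 1.31.

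Ovariectomy and estradiol were compared in callus, where the study asked how loss and replacement of estrogen act on these cells. With title form in the fit, OVX + E2, OVX and sham callus stood at 2 treatment-first arrays each, and the comparisons share these arrays. No member was called between OVX and sham callus (0% of all genes), and 0 members had an unadjusted p under 0.05, against 293 of all genes. The median log2 fold change was -0.13, with 15 of 57 above 0. Uqcrh, the hinge protein of complex III, had 12.83 and 13.11 in OVX callus, against 13.19 and 13.44 in treatment-first sham callus (-0.35 ± 0.25, adjusted p = 1). Ndufa4l2 had 11.09 and 10.87 in OVX callus, against 11.35 and 11.30 in treatment-first sham callus (-0.35 ± 0.29, adjusted p = 1); its 95% interval, -0.99 to 0.29, holds values of either sign. The accessory subunits Ndufb9, Ndufc1 and Ndufab1 had -0.33 ± 0.26, -0.26 ± 0.20 and -0.26 ± 0.21.

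With the E2 pellet, 0 of 57 members were called against OVX callus, beside 0.0207% of all genes tested. The median log2 fold change was 0.08, with 42 of 57 above 0. The assembly factor Ndufaf1 was the only member with an unadjusted p under 0.05. It had 9.38 and 9.39 in OVX + E2 callus and 8.13 and 8.55 in OVX callus, while treatment-first sham callus had 9.04 and 8.13 (OVX + E2 over OVX 1.04 ± 0.40, adjusted p = 1). The OVX + E2 arrays lay above the others, although the 2 sham arrays differed by more than the OVX arrays did. Uqcrq had 0.34 ± 0.29, Uqcr10 0.29 ± 0.26, Cyc1 0.25 ± 0.21 and Ndufb3 0.23 ± 0.18 over OVX callus. The dimmer probe sets of Uqcr10 had the opposite sign: one had 6.70 and 6.5 in OVX + E2 callus, against 8.49 and 8.83 in OVX callus (-2.06), and the other 7.70 and 7.63, against 8.77 and 8.99. Neutrophil and macrophage markers had values above 0 in the same comparison, none past the adjusted test. All 9 neutrophil genes were above 0, 7 of them at an unadjusted p under 0.05 (median 1.68), and their log2 summed signal was 14.49 to 16.48 in OVX + E2 callus, against 13.34 to 14.24 in OVX callus. All 10 macrophage genes were above 0, 8 of them at an unadjusted p under 0.05 (median 1.84), with 14.01 to 14.62 in OVX + E2 callus, against 11.92 to 12.97 in OVX callus. Their part in the members' values was not tested. The members' median was -0.03 without the mBCSP and 0.20 without the mSSC array of OVX + E2 callus. Against sham callus, OVX + E2 callus also had 0 members called, beside 0.0207% of all genes, and a median of -0.02 with 25 of 57 above 0 (-0.10 and 0.07 without the mBCSP or the mSSC array of OVX + E2); the largest values were those of Ndufaf1 (0.80 ± 0.40) and Ndufa4l2 (-0.51 ± 0.29). Uqcrh had -0.37 ± 0.25, Cyc1 0.28 ± 0.21 and Sdhc -0.21 ± 0.18.

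In uninjured bone, 0 of 57 members were called between OVX and sham, beside 0.145% of all genes, and 6 had an unadjusted p under 0.05, of which 4 were higher. With title form in the fit, the 2 OVX arrays were set against 1 sham array of the same form. The members' median log2 fold change was below 0, at -0.15 (-0.19 to -0.11 when other arrays were left out in turn). That three-letter sham array could not be left out, since the comparison cannot be estimated without it, so this range does not cover it. Their median signal was 11.25 and 11.44 on the OVX arrays, against 11.55 on the three-letter sham array. Ndufab1 had 11.78 and 11.95 in OVX cells, against 10.74, 10.65 and 10.79 in sham cells (1.34 ± 0.27, adjusted p = 0.102). Uqcrb, the ubiquinone-binding subunit of complex III, had 14.99 and 14.50 in OVX cells, against 13.49, 13.96 and 12.86 in sham cells (0.69 ± 0.22, adjusted p = 0.387). Uqcrfs1 had 10.17 and 10.15 in OVX cells, against 11.10, 10.82 and 11.07 in sham cells (-0.62 ± 0.26, adjusted p = 0.593). The accessory subunits Ndufc2 and Ndufb8 had 0.51 ± 0.17 and 0.49 ± 0.19, but -0.24 and -0.29 at their probe sets of widest range. In each of Ndufab1, Uqcrb and Uqcrfs1 the OVX arrays did not overlap the sham arrays, yet none passed the adjusted test. Other probe sets did not show this separation: the next brightest of Ndufab1 had 7.93 and 8.06 in OVX cells, against 8.10, 8.11 and 7.95 in sham cells, and that of Uqcrb 12.01 and 11.98, against 12.69, 11.98 and 12.43. Uqcrfs1 had 1 probe set. Such separation was not particular to these genes. Among other members with 1 probe set, many lay lower in OVX cells without overlap, such as Ndufa2, Ndufa8, Ndufb3, Sdhb, Cyc1 and Uqcr11. Ndufa13 and Ndufb4 lay higher, Ndufb4 near the floor. With so few arrays separation can arise by chance, and its share over all genes was not counted. The log2 summed signal of skeletal progenitor markers was 15.27 to 15.54 in uninjured OVX cells, against 12.47 to 14.90 in uninjured sham cells (8 of 9 genes above 0, 4 at an unadjusted p under 0.05), and its part was not tested. Ndufab1 was called without either unstated-surgery callus array (adjusted p = 0.0444 and 0.0429), arrays that enter this comparison only through the shared spread and covariates.

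Title form was compared because the members' level was lowest on three-letter arrays. In sham callus, 2 three-letter arrays against 2 treatment-first arrays, 2 of 57 members were lower and 0 higher, beside 1.72% and 1.19% of all genes. They were Ndufa4 (-0.77 ± 0.18, adjusted p = 0.0454) and the accessory subunit Ndufa3 (-0.88 ± 0.21, adjusted p = 0.0482). The members' median was -0.39, with 51 of 57 below 0, against -0.02 over all genes. The count was 0 without any 1 of the 6 treatment-first arrays, the 4 three-letter callus arrays or the 2 uninjured OVX arrays, and 7 without any 1 of the 4 population-first arrays.

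Over all callus arrays of both forms, a comparison chosen after the data were seen, 32 of 57 members (56.1%) were lower on the 4 three-letter arrays than on the 6 treatment-first arrays and 0 were higher. Of all genes tested 13.2% were lower and 9.04% higher. The median log2 fold change of the members was -0.37, with 53 of 57 below 0, against -0.07 over all genes. Three-letter callus held 2 conflicting-label and 2 sham arrays and treatment-first callus 2 arrays each of OVX + E2, OVX and sham, so form and ovary state cannot be told apart outside sham callus. In 26 members every three-letter array lay below every treatment-first array and in 0 above, against 10.6% and 6.52% of all genes.

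Calls ran through all roles: 4 of 6 core subunits, 18 of 28 accessory subunits and 3 of 8 assembly factors of complex I, 1 of 4 subunits of complex II, 5 of 9 of complex III, and Ndufa4. Ndufs7, a core subunit that holds the last iron-sulfur cluster before ubiquinone, had 10.83, 10.97, 11.03 and 10.86 in three-letter callus, against a lowest value of 11.57, a median of 11.69 and a highest value of 11.86 in treatment-first callus. The groups did not overlap, and the log2 fold change was -0.77 ± 0.10, adjusted p = 0.000493. Ndufb10, an accessory subunit of the membrane arm, had 10.27, 10.60, 10.71 and 10.73 in three-letter callus, against a lowest value of 11.34, a median of 11.56 and a highest value of 11.74 in treatment-first callus (-0.99 ± 0.13, adjusted p = 0.000711). Ndufaf5, an assembly factor that modifies Ndufs7, had 8.81, 8.83, 9.30 and 8.82 in three-letter callus, against a lowest value of 9.78, a median of 10.04 and a highest value of 10.56 in treatment-first callus (-1.13 ± 0.19, adjusted p = 0.00223). Ndufaf8, the partner of Ndufaf5, and Ndufaf2, a late assembly factor, had -0.74 ± 0.11, adjusted p = 0.000987, and -1.06 ± 0.19, adjusted p = 0.00296. Ndufs8 had -0.97 ± 0.20, adjusted p = 0.00718, and the accessory subunits Ndufa13, Ndufa3, Ndufb2 and Ndufa12 had -0.75 ± 0.14, -0.72 ± 0.10, -0.72 ± 0.15 and -0.68 ± 0.12, all called. Both Ndufb10 and Ndufaf5 were lower on each three-letter array, with no overlap.

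Ndufa4 had 11.03, 11.26, 10.89 and 10.92 in three-letter callus, against a lowest value of 11.60, a median of 11.70 and a highest value of 11.78 in treatment-first callus. The log2 fold change was -0.67 ± 0.10, adjusted p = 0.000948, while Ndufa4l2 had 0.32 ± 0.33, adjusted p = 0.521. In complex II only Sdhc, a membrane anchor, was called (-0.28 ± 0.09, adjusted p = 0.0499), and Sdha had -0.15 ± 0.09, adjusted p = 0.249. In complex III, Uqcrq had -0.69 ± 0.12, adjusted p = 0.00318, and the core protein Uqcrc1 -0.09 ± 0.08, adjusted p = 0.443. At the level of probe sets 57 of 111 were lower and 1 higher, a dim probe set of Ndufa12 (1.0, adjusted p = 0.00236) whose other 3 probe sets were lower. Ndufs8 was lower at 5 of 6 probe sets and Ndufs7 at both.

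**Figure D5:**
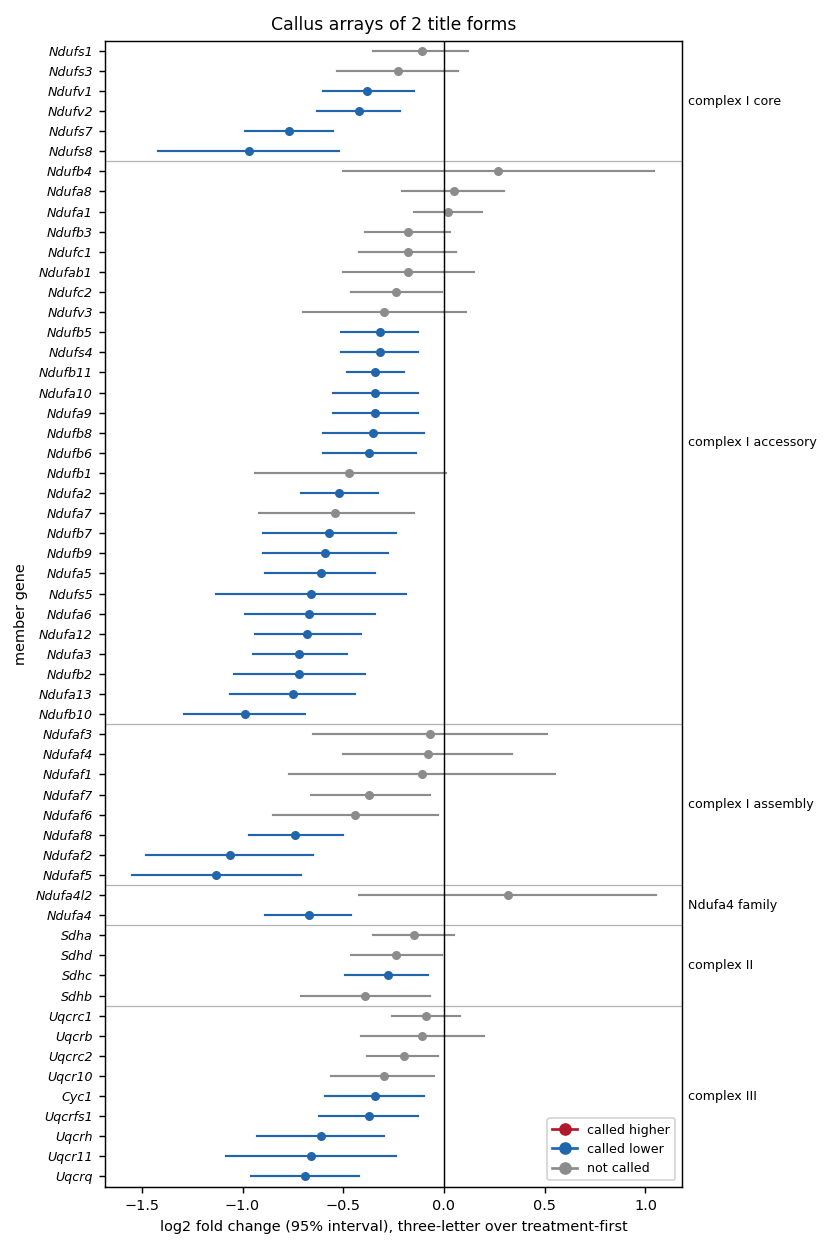
Log2 fold change of each member, three-letter callus (4 arrays) over treatment-first callus (6 arrays), with its 95% interval, grouped by role; blue marks members called lower. Of 57 members 32 are called lower, down to -1.13 for Ndufaf5, and none is called higher.

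Other lists differed along with the members. On three-letter callus arrays 10 of 15 complex V genes, 4 of 15 of complex IV with cytochrome c and 3 of 14 of the TCA cycle were lower and 0 higher. Of the hypoxia and glycolysis list, 6 of 13 were higher, with Adm at 1.64 ± 0.18, adjusted p = 0.000227. All 6 erythroid genes were higher (median 3.10), their log2 summed signal being 12.11 to 14.99 in three-letter callus, against 9.94 to 10.47 in treatment-first callus, where Rhag was at the floor on every array. Of 9 skeletal progenitor genes 5 were lower and 2 higher (median -0.60), with a summed signal of 16.03 to 16.59, against 16.62 to 16.79. Their part in the members' difference was not tested. The count of 32 was 20 to 33 when each array was left out in turn, and 20 without the mBCSP array of OVX + E2 callus.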

How the data were processed

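Deposited values for 17 arrays came as 1 table of log2 signals. The submitters' processing notes name MAS5, with no version, and the study's methods describe 2 rounds of linear RNA amplification, dChip and Gene Expression Commons. Which step made the log2 values deposited by the authors was not given in the sources used here, so their absolute scale is open. The values were raised to linear scale and quantile normalized, a floor was set at their 20th percentile (5.951 in log2), and log2 was taken again. Probe sets were named through the platform annotation: 34945 had 1 symbol, 932 several and 9160 none. A gene was kept if it reached the 40th percentile (log2 7.198) on at least 2 arrays.

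Tests used limma 3.58.1 in R 4.3.3 (lmFit, eBayes with trend). Fracture was fitted on 11 arrays (7 residual degrees of freedom, 6 with its interaction with population), other comparisons on 17 with group, population and title form, and form over all callus on 10 with population. The scripts were tested on simulated data. The number of arrays limits the precision. Named genes are, per comparison, up to 12 called members in each direction by size of change, or else the 5 of smallest p, with 10 fixed subunits where they bear on it; the 5 widest and 3 narrowest in range; and up to 4 called genes per list. Alternatives changed 1 choice at a time and left out each array in turn. The exception was the three-letter uninjured sham array, without which OVX against sham in uninjured bone cannot be estimated. Members and lists were chosen with earlier results of these data known.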

Additional observations from a re-analysis of the deposited data

Results flagged for a closer look

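Of 140 checks (28 measures in 5 sets of arrays), 14 had 1 array far from the rest of its set. Chance gives about 1 in 20 for a set of like arrays. These checks share arrays and genes, and the sets mix populations and in part groups or forms, so that rate is only a rough guide. The mSSC array of unstated-surgery callus was highest among the 6 callus arrays of the three-letter and population-first forms for the member median (12.33, next 11.87), Ndufa12 (12.98, next 11.90), Ndufaf2 (10.93, next 8.62) and Ndufaf5 (10.81, next 9.30). In the same set the three-letter sham mBCSP array was lowest for Uqcrfs1 (10.36, next 10.57). Among uninjured arrays the sham mBCSP array was highest for Ndufaf2 (8.87, next 8.0).

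Among the 4 three-letter callus arrays, the sham mBCSP array was highest for Cyc1 (11.68, next 11.40) and Ndufaf5 (9.30, next 8.83) and lowest for Ndufv1 (11.47, next 11.81). The conflicting-label mBCSP array was lowest there for Ndufaf2 (8.36, next 8.59), and the sham mSSC array for Ndufaf8 (10.44, next 10.56). That sham mSSC array was also lowest among the 4 sham callus arrays for Cyc1 (11.38, next 11.67). Among the 6 treatment-first callus arrays, the OVX mBCSP array was lowest for the member median (11.81, next 12.06) and the sham mSSC array for Sdha (11.92, next 12.19).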

How the results depend on the processing

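Over 88 results, 1760 values kept their direction and side of the threshold or moved little, 157 lost a call, 10 gained one, 34 moved and 48 changed sign; the cause was not tested. The 8 members called with fracture were 4 on values as deposited, 5 with no trend, 2 with no title form term, 14 on all 17 arrays (12 higher, 2 lower), 2 for sham callus against sham uninjured bone, 0 in the population-first form alone, 2 with array pairs as a random block, 1 with the blood gene covariate, 2 by the methods' t-test, and 2 to 16 when each array was left out. The 0 of OVX against sham uninjured bone was 1 with no filter, 2 with no form term, and 0 to 1 when arrays were left out. The 2 of title form in sham callus were 0 on values as deposited, 4 with no filter, 0 with the probe set of widest range, 1 over every probe set, 0 with no trend, 12 with conflicting-label arrays as OVX, and 0 to 7 when arrays were left out. The counts of 0 between populations, for their difference in the fracture response, and for OVX and OVX + E2 in callus stayed 0 in every alternative run, the t-test included where it was run. The 32 of title form over all callus were 58 over every probe set (57 lower, 1 higher) and 20 to 33 when arrays were left out. The blood gene covariate, the fit without the unstated-surgery pair and the form comparison over all callus were chosen after seeing the data.

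Values near 0 changed sign with fracture: Cyc1 to 0.01 (as deposited), 0.00 (sham against sham), 0.26 (three-letter form) and 0.25 (without the unstated-surgery pair); Sdhc to -0.02 (no form term), -0.07 (sham against sham), -0.03 (three-letter form), -0.04 (without that pair) and -0.01 (t-test); Uqcrfs1 to 0.20 (three-letter form) and 0.19 (without that pair); and Sdhd and Ndufs1 to -0.48 and -0.30 (population-first form) and -0.01 and -0.08 (blood gene covariate). With the probe set of widest range, the sign turned for Ndufv1 with fracture (0.70), Ndufa10 in the population difference (-0.17), Ndufs4 between populations (-0.45), Uqcr10 for OVX + E2 against OVX (-2.06), Sdhc for OVX + E2 against sham (0.03), Ndufc2 and Ndufb8 in uninjured bone (-0.24 and -0.29), Sdha in form in sham callus (0.42), and Ndufb2 and Ndufa12 in form over all callus (0.04 and 1.0). For OVX against sham callus, Uqcrh was 0.06 and Ndufab1 0.01 with no form term and by the t-test, and Ndufab1 0.08 with conflicting-label arrays as OVX; Uqcrh for OVX + E2 against sham was 0.04 with no form term and by the t-test. With arrays left out in turn, signs turned for Cyc1 (-0.15 to 0.13), Sdhc (-0.02 to 0.07), Sdhd (-0.01 to 0.28), Uqcrfs1 (-0.16 to 0.06) with fracture, and Cyc1 (-0.35 to 0.01), Ndufs1 (-0.20 to 0.06), Sdha (-0.09 to 0.06) in form in sham callus.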
